A study of Homo sapiens with 6 samples.

Results

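The MYC, MAX and MXD network was followed in the leukemic cell line K562 with and without the isoforms of the transcription factor C/EBPα. The genes were chosen by name, as MYC, MAX, MXD1, MXD3, MXD4, MXI1, MNT and MLX, and 7 of these 8 had 1 row in each deposited table, out of 17066 gene symbols in all. MXD4 was not analysed here. RNA-seq was available for 6 samples, 2 replicates of each of 3 stable K562 lines: CTR cells with the empty vector, CEBPA cells with wild type C/EBPα, and P30 cells with the shorter C/EBPα-p30 isoform found in acute myeloid leukemia. The transgenes were carried by a PiggyBac transposon and driven by a Tet-inducible promoter, all 3 lines received doxycycline at 200 ng/ml for 48 h, and no culture without the drug was sequenced. Differences between lines that were made separately therefore cannot be told apart from effects of the isoforms. Whether each line was a single clone is not given in the sources used here. The authors' western blot legend names both the full-length p42 and the p30 isoform for the CEBPA line. CEBPA vs P30 is therefore not p42 alone against p30.

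The proteins of this network all carry a basic helix-loop-helix leucine zipper, which lets them form pairs and bind the E-box, a short DNA element. MYC activates growth and cell cycle genes and binds DNA only when paired with MAX. The MXD proteins (MXD1, MXI1, MXD3 and MXD4) and MNT compete with MYC for MAX and for the E-box, and repress by recruiting the SIN3 and histone deacetylase complex. MLX is the counterpart of MAX in a parallel branch, in which it pairs with the glucose-responsive factors MLXIP (MondoA) and MLXIPL (ChREBP), and also with MXD1, MXD4 and MNT. In blood cells, MYC is typical of dividing progenitors, whereas MXD1 is known to increase during myeloid differentiation and MXD3 is known from cycling cells.

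Sequences around listed starts of the genes are shown first, because both the network's own element and that of C/EBPα can be looked for in them. RefSeq promoters of GRCh38.p14, with 250 bases before and 50 after a gene's start, were searched for 6 of the 7 genes. They came in 9 windows of 300 bases, and MYC was left out of the search. The motifs searched, on both strands, were the E-box CACGTG, which is its own reverse complement, and TTGCNNAA, a relaxed form of the C/EBP site. The E-box was found in 2 of the 9 windows, those of MNT and MLX, and in 7.26% of 35116 promoters of that length. TTGCNNAA was found in 1 of the 9 windows, 1 of the 3 of MXI1, and in 10.5% of all promoters. The full palindrome TTGCGCAA was in none of the 9 windows and in 0.151% of all promoters. The motifs did not overlap. The windows with a match are printed 5′ to 3′ on the strand of the gene, with the match in capitals. The match begins 157 bases upstream of the start in MXI1, 193 bases in MNT and 50 bases in MLX. Each match describes these letters only and does not show binding, and the windows of MAX (2 starts), MXD1 and MXD3 held neither motif. This absence covers the listed windows only. Any other start of MAX, which has 19 annotated transcripts, was not searched, so that its main promoter may lie outside these windows.
MXI1, chr10:110225746-110226045, plus strand: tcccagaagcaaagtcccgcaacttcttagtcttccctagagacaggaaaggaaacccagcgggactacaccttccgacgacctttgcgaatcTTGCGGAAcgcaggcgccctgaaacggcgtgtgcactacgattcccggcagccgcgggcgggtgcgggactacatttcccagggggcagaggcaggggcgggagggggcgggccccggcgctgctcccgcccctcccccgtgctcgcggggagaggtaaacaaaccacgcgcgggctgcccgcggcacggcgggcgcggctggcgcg
MNT, chr17:2401011-2401310, minus strand: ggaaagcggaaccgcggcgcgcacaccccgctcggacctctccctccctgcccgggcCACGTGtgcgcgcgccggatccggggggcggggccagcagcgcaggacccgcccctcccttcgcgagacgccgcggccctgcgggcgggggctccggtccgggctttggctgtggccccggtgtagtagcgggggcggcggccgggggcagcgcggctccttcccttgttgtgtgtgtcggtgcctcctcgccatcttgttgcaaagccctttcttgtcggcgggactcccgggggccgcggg
MLX, chr17:42566850-42567149, plus strand: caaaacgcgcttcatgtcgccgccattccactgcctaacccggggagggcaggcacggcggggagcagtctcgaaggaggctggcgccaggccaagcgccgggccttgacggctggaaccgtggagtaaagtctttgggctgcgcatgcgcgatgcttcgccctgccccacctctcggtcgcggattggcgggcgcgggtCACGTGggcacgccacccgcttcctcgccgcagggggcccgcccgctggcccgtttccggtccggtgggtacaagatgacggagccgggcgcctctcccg

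Levels are in FPKM, fragments scaled to transcript length and to the size of the library, and how the libraries were scaled is not given. For each gene and line the tables held 1 FPKM, with both replicates pooled. FPKM is scaled to length, so that levels of different genes can be compared. The depth of each sample, the spread between replicates and any batch between the 2 sequencing runs of the replicates are unknown from these values, and no SD, interval or p-value can be given. Every value below is therefore a description without a replicate check, and how far neighbouring levels differ beyond replicate error is not known. Differences were taken on the log2(FPKM + 1) scale, on which small levels are compressed, for those genes whose FPKM exceeded 1 in either line of a pair. All 7 genes passed this filter in every comparison.

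MYC was the most abundant of the 7 genes in every line and was highest in P30 and lowest in CEBPA. It had 81.8 FPKM in CTR, 56.3 FPKM in CEBPA and 102 FPKM in P30. CTR thus lay between the 2 isoform lines. The P30 level was 1.82 times the CEBPA level. Among the 13693 genes that exceeded 1 FPKM somewhere, the MYC level was above 90.5% in CTR, 86.2% in CEBPA and 92.6% in P30. On the log2 scale MYC was lower by 0.53 in CEBPA than in CTR, and 20.9% of the 13673 genes compared were lower by as much or more. In P30 the log2 difference from CTR was 0.32, which 8.77% of 12395 genes equalled or exceeded. Between CEBPA and P30 the log2 difference was -0.85, a distance reached on the lower side by 8.69% of 13569 genes.

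MAX, the partner that MYC and the repressors share, had 43.6 FPKM in CTR, 24.5 FPKM in CEBPA and 47.3 FPKM in P30. It was lower in CEBPA than in both other lines, which were close to each other. Its log2 difference was -0.80 for CEBPA vs CTR and -0.92 for CEBPA vs P30, against 0.12 for P30 vs CTR. As deep a difference from CTR was found in 11.2% of all genes in CEBPA.

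The MXD repressors differed among themselves. MXD3 had 71.4 FPKM in CTR, 39.1 FPKM in CEBPA and 66.5 FPKM in P30, and was the second most abundant of the 7 genes in CTR and P30. Its log2 difference from CTR was -0.85 in CEBPA and -0.10 in P30, the latter the one difference below 0 among the 7 genes in P30 vs CTR. MXI1, which encodes MAX interactor 1, had 15.6 FPKM in CTR, 7.37 FPKM in CEBPA and 16.8 FPKM in P30. Of the 7 genes it was furthest below CTR in CEBPA. Its FPKM in CTR was 2.11 times that in CEBPA, and its log2 difference was -0.98 for CEBPA vs CTR and -1.09 for CEBPA vs P30. These depths were reached by 7.21% and 4.44% of all genes, respectively.

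MXD1 did not share the lower level of MXD3 and MXI1 in CEBPA. MXD1 had 49.5 FPKM in CTR, 56.0 FPKM in CEBPA and 50.9 FPKM in P30. The log2 difference for CEBPA vs CTR was small, at 0.18, and 40.7% of all genes were higher by as much or more. MNT, a broadly expressed repressor of the network, had 7.45 FPKM in CTR, 8.99 FPKM in CEBPA and 9.30 FPKM in P30. MNT was the least abundant of the 7 genes in CTR and P30, and both isoform lines were above CTR, with log2 differences of 0.24 in CEBPA and 0.29 in P30. In P30, MYC and MNT were the furthest from CTR among the 7 genes. MLX differed little between lines, with 35.0 FPKM in CTR, 33.7 FPKM in CEBPA and 36.3 FPKM in P30, and log2 differences of -0.05 and 0.05 from CTR.

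**Figure D1:**
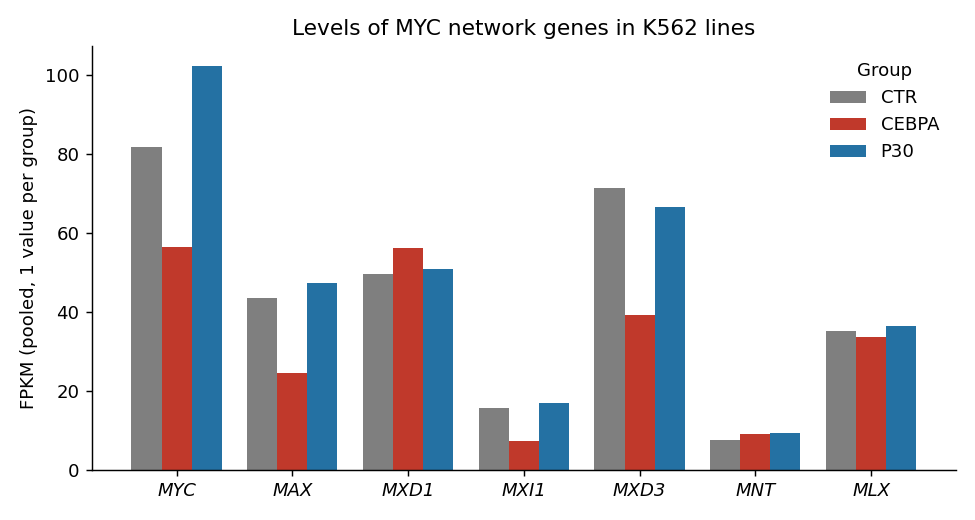
FPKM of the 7 genes in the CTR, CEBPA and P30 lines, 1 pooled value per bar and without error bars because replicates are not separate in the deposited values. MYC, MAX, MXI1 and MXD3 have their lowest bar in CEBPA, MXD1 has its highest there, and MYC reaches 102 FPKM in P30.

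The order of the levels was the same in CTR and P30 (MYC, MXD3, MXD1, MAX, MLX, MXI1, MNT) and different in CEBPA (MYC, MXD1, MXD3, MLX, MAX, MNT, MXI1). In CEBPA, MXD1 was above MXD3, MLX above MAX and MNT above MXI1, the reverse of the other lines. MYC and MXD1 stood at nearly equal FPKM in CEBPA, with a ratio of 1.00, compared with 1.65 in CTR and 2.01 in P30.

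Counted against all genes, no gene of the network was 2-fold higher or lower in CEBPA vs CTR. At 2-fold, 14.0% of all genes were higher in CEBPA and 6.92% lower. MXI1, at a log2 difference of -0.98, was nearest to this limit, and with 0.1 in place of 1 added to the FPKM it was 2-fold lower. At 1.5-fold, 3 of the 7 genes were lower (MXI1, MXD3 and MAX) and 0 higher, where 18.6% of all genes were lower and 24.0% higher. The median log2 difference of the 7 genes was -0.53, beside -0.01 for all genes. With so few genes chosen by name, these shares describe the network and were not tested.

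In P30 vs CTR, 0 of the 7 genes were 2-fold or 1.5-fold apart in either direction. Among all genes, 1.02% were 2-fold higher in P30 and 0.613% lower, and 2.69% were 1.5-fold higher and 2.63% lower. The median of the 7 genes was 0.11, with 6 above 0, and that of all genes 0.02. In CEBPA vs P30, MXI1 was 2-fold lower in CEBPA, as were 5.79% of all genes, and no gene of the network was 2-fold higher, as 13.1% of all genes were. At 1.5-fold, 4 of the 7 genes were lower in CEBPA (MXI1, MAX, MYC and MXD3) and 0 higher, beside 17.8% and 22.3% of all genes. The comparisons share lines and are not independent of each other.

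**Figure D2:**
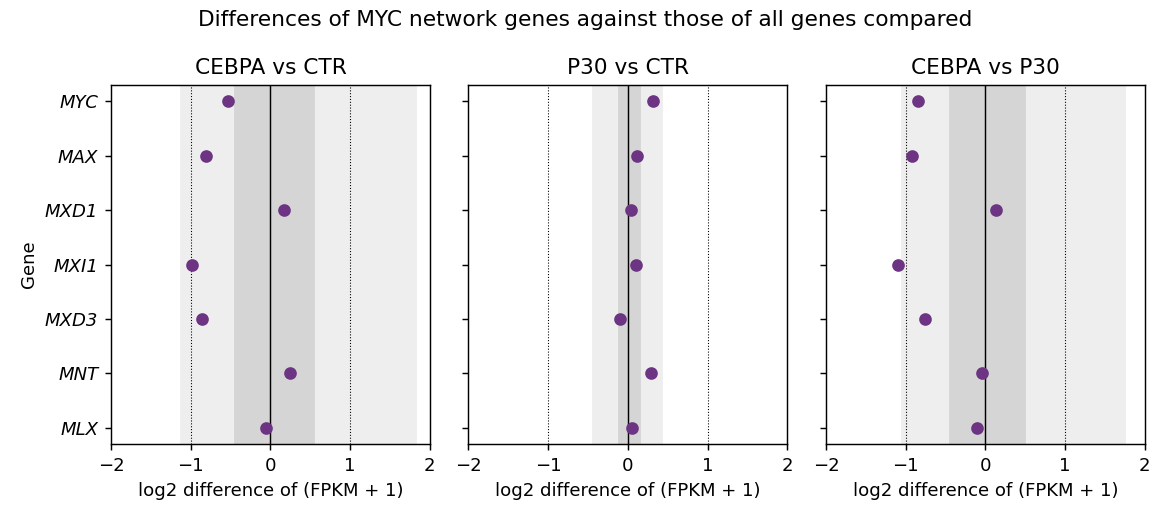
Log2 differences of FPKM + 1 for the 7 genes (points) in each pair of lines, over the range of all genes compared (light grey, the central 90%; dark grey, the central 50%), with dotted lines at 2-fold. In CEBPA vs CTR, MXI1, MXD3, MAX and MYC lie below the dark band and MXD1, MNT and MLX within it, and in P30 vs CTR all 7 points lie between -0.10 and 0.32.

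Since MYC and the repressors draw on the same MAX, their levels were also set against each other. The FPKM of MXD1, MXI1, MXD3 and MNT added up to 144 for CTR, to 111 for CEBPA and to 144 for P30. The sum was lower in CEBPA, and its makeup differed too. MXD1 made up 34.4% of the sum in CTR, 50.3% in CEBPA and 35.5% in P30. For MXD3 the shares were 49.6%, 35.1% and 46.3%, so that MXD1 was the leading repressor transcript in CEBPA and MXD3 in the other lines. MXI1 made up 10.8% in CTR, 6.61% in CEBPA and 11.7% in P30, and MNT 5.17%, 8.06% and 6.48%. The ratio of MXD1 to MXD3 was 0.693 in CTR, 1.43 in CEBPA and 0.765 in P30. MXD4 is missing from these sums.

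The ratio of MYC to the summed repressors was 0.568 in CTR, 0.505 in CEBPA and 0.712 in P30. It was highest in P30, where MYC was higher and the sum nearly that of CTR. In CEBPA both MYC and the sum were lower than in CTR, and the ratio was closer to that of CTR. MYC per MAX was 1.88 in CTR, 2.29 in CEBPA and 2.16 in P30, and the difference between CEBPA and CTR was larger for MAX than for MYC. MYC and the 4 repressors together stood at 5.18 times the MAX level in CTR, 6.84 times in CEBPA and 5.20 times in P30. These are ratios of RNA, and protein was not measured here.

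**Figure D3:**
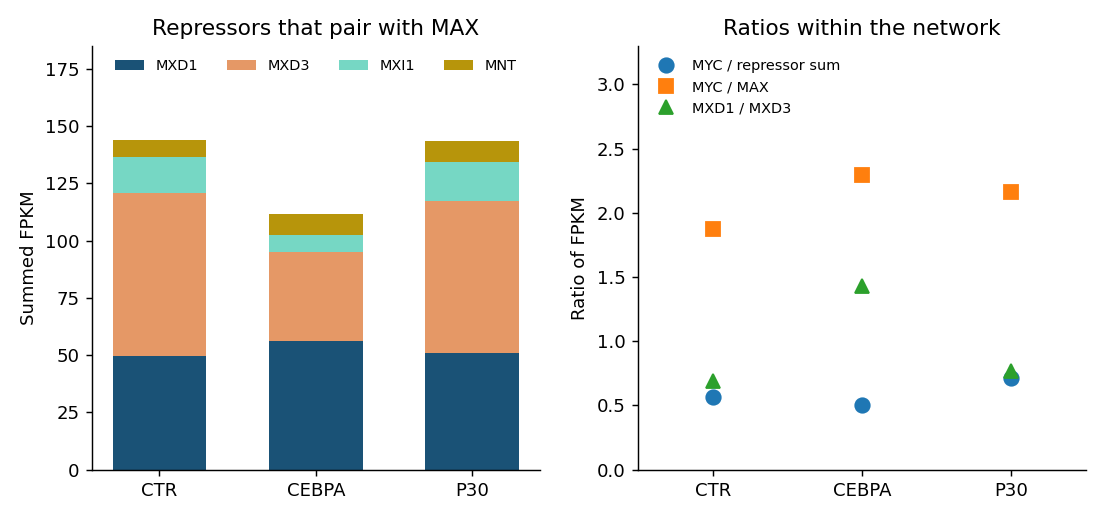
Left, FPKM of MXD1, MXD3, MXI1 and MNT stacked for each line; right, ratios of FPKM between genes of the network, 1 pooled value per point. MXD1 takes 50.3% of the CEBPA bar and MXD3 49.6% of the CTR bar, and the ratio of MYC to the repressor sum is highest in P30, at 0.712.

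Genes that other reads could reach were looked up in a later Gencode annotation on GRCh37, the build of the authors' alignment (hg19). MYC was left out of this lookup. MXD3 (ENSG00000213347, chromosome 5, 176728462 to 176739758, minus strand) overlaps RAB24 on its own strand over 2284 bases and PRELID1 on the opposite strand over 3151 bases. PRELID1 had 109 FPKM in CTR, 87.1 FPKM in CEBPA and 114 FPKM in P30. MXD1 (ENSG00000059728, chromosome 2, 70124820 to 70170077, plus strand) overlaps SNRNP27 on its own strand over 7888 bases. The levels of MXD3, MXD1 and MXI1 are uncertain where bases shared with a gene on the same strand hold reads. How strand entered the counting is not known. Overlaps on the opposite strand could therefore also bear on levels, among them those of MXD3, MAX, MNT and MLX. MAX (ENSG00000125952, chromosome 14, 65472892 to 65569413, minus strand) overlaps FNTB on the opposite strand over 56479 bases. MXI1 (ENSG00000119950, chromosome 10, 111967363 to 112047123, plus strand) has 38 annotated transcripts, which FPKM per gene does not separate. It overlaps a processed pseudogene (ENSG00000214067) on its own strand over 780 bases. MNT (ENSG00000070444) lies on chromosome 17 at 2287367 to 2304398, minus strand, and MLX (ENSG00000108788) on the same chromosome at 40719090 to 40725257, plus strand. On the opposite strand, MNT overlaps a long noncoding RNA (ENSG00000262456) over 1818 bases and MLX overlaps PSMC3IP over 930 bases.

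Of the other genes of the extended network, MYCL, MLXIP and MLXIPL were lower in CEBPA than in CTR. MYCL, a paralog of MYC, had 8.16 FPKM in CTR, 4.10 FPKM in CEBPA and 5.45 FPKM in P30, and was below CTR in both isoform lines, unlike MYC. MLXIP, the MLX partner MondoA, had 34.2 FPKM in CTR, 21.5 FPKM in CEBPA and 29.8 FPKM in P30. With MLX level between lines, MLXIP per MLX was 0.976 in CTR, 0.637 in CEBPA and 0.820 in P30. MLXIPL, the MLX partner ChREBP, had 13.6 FPKM in CTR, 8.51 FPKM in CEBPA and 20.5 FPKM in P30, with log2 differences from CTR of -0.62 and 0.55. MGA, which pairs with MAX in a repressor complex, was at 7.11 FPKM in CTR, 8.52 FPKM in CEBPA and 8.54 FPKM in P30. These 4 genes had values among the 6 symbols listed, of which MYCL1 is an older name of MYCL and MYCN was not analysed here. At 1.5-fold, 3 of the 4 were lower in CEBPA vs CTR, where 18.6% of all genes were. In P30 vs CTR 0 of the 4 were 1.5-fold apart, beside 2.69% of all genes higher and 2.63% lower.

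Proteins that work with MYC or the repressors were compared next. Of 10 MYC cofactors with values, 8 were below CTR in CEBPA, with a median log2 difference of -0.29, but 0 were 1.5-fold lower and 1 was 1.5-fold higher, beside 18.6% and 24.0% of all genes. That gene was CCNT1, the cyclin of the elongation kinase P-TEFb, at 15.7 FPKM in CTR, 26.5 FPKM in CEBPA and 17.6 FPKM in P30. RUVBL2, a helicase subunit of chromatin complexes, had 94.2 FPKM in CTR, 62.9 FPKM in CEBPA and 104 FPKM in P30. The log2 difference of WDR5, a chromatin scaffold that binds MYC, was -0.53 for CEBPA and -0.02 for P30, each against CTR. That of EP400, an ATPase of the TIP60 complex, was -0.31 and 0.15, and that of KAT5, the acetyltransferase of that complex, -0.30 and 0.18. In P30 the cofactor median was 0.09, and 0 of 10 were 1.5-fold apart.

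Among 9 genes listed as MXD corepressors, including those of the SIN3 complex, 2 were 1.5-fold lower in CEBPA vs CTR and 0 higher. The list median was -0.15. The share that was lower is near the 18.6% of all genes, and 24.0% of all genes were higher. SIN3A, the scaffold that MXD proteins bind, had 16.1 FPKM in CTR, 9.65 FPKM in CEBPA and 15.4 FPKM in P30. HDAC1, a histone deacetylase of the complex, had 187 FPKM in CTR, 118 FPKM in CEBPA and 206 FPKM in P30. RBBP4, a histone binding subunit, was lower by 0.56 on the log2 scale in CEBPA, whereas SAP30, another subunit, differed by 0.45. In P30 vs CTR 0 of 9 genes were 1.5-fold apart. NCOR1, a corepressor scaffold, was furthest, with 24.6 FPKM in CTR, 34.4 FPKM in P30 and 27.2 FPKM in CEBPA.

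Regulators of MYC protein stability were looked at for the same lines. FBXW7, the substrate receptor of a ubiquitin ligase that marks MYC for degradation, had 6.23 FPKM in CTR, 18.9 FPKM in CEBPA and 7.01 FPKM in P30, a log2 difference of 1.46 for CEBPA vs CTR. It was the 1 gene at 2-fold among the 9 of this list that are given here, where 14.0% of all genes were 2-fold higher. SKP2, another ligase subunit that acts on MYC, had 42.6 FPKM in CTR, 84.5 FPKM in CEBPA and 44.5 FPKM in P30. Both were higher in CEBPA than in CTR and P30. HUWE1, a further ubiquitin ligase of MYC, was named after its values were seen and had 43.2 FPKM in CTR, 36.9 FPKM in CEBPA and 45.2 FPKM in P30, so that it was lowest in CEBPA. KIAA1524, which encodes the phosphatase inhibitor CIP2A that stabilizes MYC, was at 14.9 FPKM in CTR, 22.6 FPKM in CEBPA and 20.1 FPKM in P30. USP36, a nucleolar deubiquitinase of MYC, had 17.5 FPKM in CTR, 25.6 FPKM in CEBPA and 18.2 FPKM in P30. USP28, another deubiquitinase of MYC, differed from CTR by 0.29 in CEBPA and 0.38 in P30 on the log2 scale. At 1.5-fold, 2 of these 9 were higher in CEBPA than in CTR, a share near the 24.0% of all genes, and 0 were apart between P30 and CTR.

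Known targets of MYC activation were spread on both sides. Of the 29 with over 1 FPKM, 21 were below CTR in CEBPA, with a median log2 difference of -0.18 beside -0.01 for all genes. At 1.5-fold, 7 of 29 (with 18.6% of all genes) were lower and 2 higher (with 24.0% of all genes). MTHFD2, a mitochondrial enzyme of folate metabolism, was the 1 target at 2-fold, with 158 FPKM in CTR, 66.1 FPKM in CEBPA and 171 FPKM in P30. Among all genes, 6.92% were 2-fold lower in CEBPA vs CTR and 14.0% 2-fold higher. FBL, the nucleolar methyltransferase fibrillarin, had 273 FPKM in CTR, 147 FPKM in CEBPA and 290 FPKM in P30. The cyclin-dependent kinase CDK4 had 197 FPKM in CTR, 109 FPKM in CEBPA and 210 FPKM in P30. In contrast PPAT, the first enzyme of purine synthesis, had 23.7 FPKM in CTR, 46.2 FPKM in CEBPA and 26.5 FPKM in P30. In P30 vs CTR 21 of 29 targets were above 0, with a median of 0.06 beside 0.02 for all genes, and 0 were 1.5-fold apart. The furthest were LDHA, lactate dehydrogenase A, with a log2 difference of 0.39, and APEX1, a DNA repair endonuclease, with 0.25.

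Genes that MYC is known to lower did not stand together on the higher side. Of 8 with over 1 FPKM, 2 were 1.5-fold higher and 2 lower in CEBPA vs CTR, with a median of -0.46. Among all genes 24.0% were higher and 18.6% lower, so that these shares are near the background. GADD45B, a stress response gene, had 1.54 FPKM in CTR and 3.47 FPKM in CEBPA, and differed from CTR by 0.03 on the log2 scale in P30. CDKN1A, the gene of the cell cycle inhibitor p21, had 3.20 FPKM in CTR, 5.82 FPKM in CEBPA and 2.69 FPKM in P30. CDKN1C, the gene of the related inhibitor p57, had 8.78 FPKM in CTR, 2.56 FPKM in CEBPA and 8.46 FPKM in P30. ITGB1, the integrin β1 chain, was lower by 0.78 on the log2 scale in CEBPA. In P30 vs CTR, 1 of 8 was 1.5-fold higher, beside 2.69% of all genes. This was CLU, clusterin, with 7.75 FPKM in CTR and 13.0 FPKM in P30, and COL1A1, a collagen chain, followed with a log2 difference of 0.31.

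Targets of the MLX branch lay on both sides of CTR in CEBPA. TXNIP, the thioredoxin interacting protein and best known target of MLXIP with MLX, had 223 FPKM in CTR, 91.1 FPKM in CEBPA and 239 FPKM in P30. HK2, hexokinase 2, had 4.13 FPKM in CTR, 16.7 FPKM in CEBPA and 6.84 FPKM in P30. KLF10, a zinc finger factor, was lower by 0.70 on the log2 scale in CEBPA, and PFKFB3, a glycolytic regulator, differed by 0.67. ARRDC4, an arrestin domain protein, differed from CTR by -0.39 in CEBPA and -0.18 in P30. At 1.5-fold, 2 of 5 were higher and 2 lower in CEBPA vs CTR, beside 24.0% and 18.6% of all genes. In P30 vs CTR 1 of 5, HK2, was 1.5-fold higher, beside 2.69% of all genes.

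Among 7 proteins of the complex that holds MGA and MAX, PCGF6, the Polycomb RING finger subunit, was the 1 gene 2-fold higher in CEBPA vs CTR, as were 14.0% of all genes, with 10.7 FPKM in CTR, 34.9 FPKM in CEBPA and 11.5 FPKM in P30. L3MBTL2, a methyl-lysine binding subunit, had 11.7 FPKM in CTR, 6.21 FPKM in CEBPA and 11.3 FPKM in P30, and was the 1 gene of this list 1.5-fold lower, beside 18.6% of all genes. E2F6, the E2F-like DNA binding subunit, was lower by 0.55 on the log2 scale in CEBPA and differed by 0.10 in P30. RYBP, a Polycomb adaptor, differed by -0.14 in P30, where 0 of 7 were 1.5-fold apart. The list medians, each against CTR, were -0.48 for CEBPA and 0.03 for P30. PVT1, a noncoding RNA encoded next to MYC, had 42.2 FPKM in CTR, 23.3 FPKM in CEBPA and 38.1 FPKM in P30. It was lower than in CTR in both isoform lines, with log2 differences of -0.83 and -0.14, while MYC was lower in CEBPA and higher in P30.

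**Figure D4:**
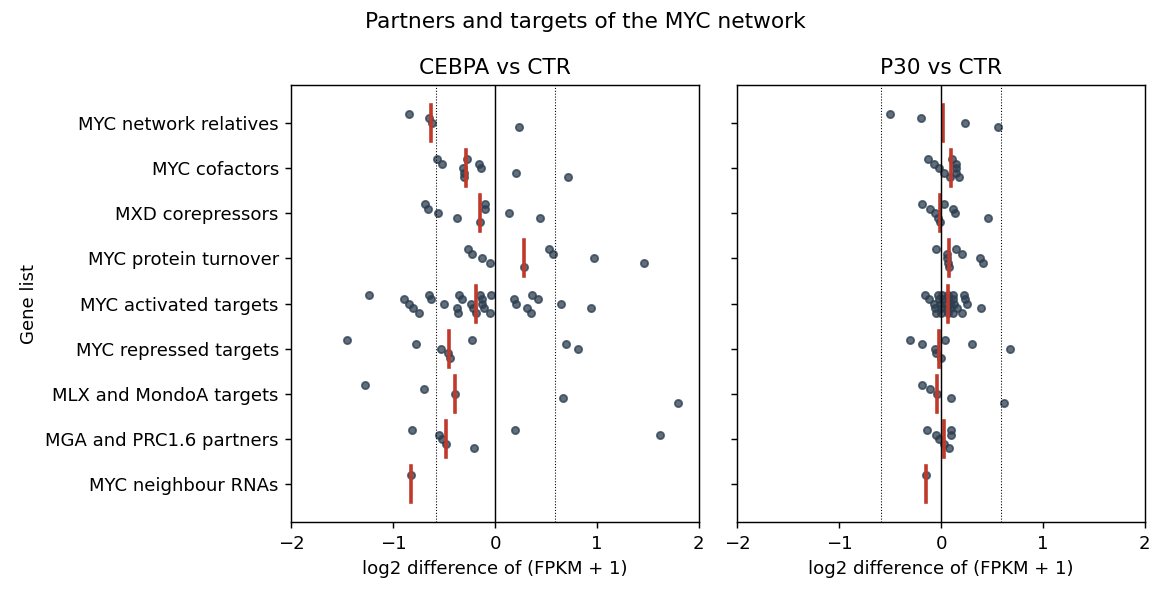
Log2 differences of FPKM + 1 for the genes of each partner or target list (points, genes with over 1 FPKM in either line) with the list median (red line) and dotted lines at 1.5-fold. Points spread widely in CEBPA vs CTR, with HK2 at 1.79 and CDKN1C at -1.46, whereas in P30 vs CTR only HK2 and CLU lie beyond 1.5-fold.

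The genes nearest in pattern were sought by the distance between pairs of log2 differences (CEBPA vs CTR and P30 vs CTR), over the 3 lines and among 13692 other genes. Nearest to MYC were RGS19, EXO1 and MATN1-AS1, at distances of 0.01, 0.02 and 0.02. Nearest to MXI1, the gene furthest below CTR, were NUCKS1, ZBTB3 and FOXO4, at 0.01, 0.02 and 0.03, and nearest to MNT, the gene with the highest difference in CEBPA, were PLAG1, GSTCD and AGO2, all at 0.01. Within a distance of 0.05 lay 14 genes for MYC, 19 for MXI1 and 50 for MNT. Over 3 values such likeness is common.

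Markers of cell types were set beside these values. All 7 erythroid markers with values were present in CTR, from 42.2 FPKM (EPOR) to 872 FPKM (HBG1), as the label of K562 requires, and their sum was 1802 FPKM in CTR, 595 FPKM in CEBPA and 1185 FPKM in P30. All 7 were 2-fold lower in CEBPA vs CTR, beside 6.92% of all genes. ALAS2 and HBG1 were 2-fold lower in P30 vs CTR, beside 0.613% of all genes. The 8 granulocyte markers with values summed to 4.68 FPKM in CTR, 10038 FPKM in CEBPA and 28.4 FPKM in P30. The sum in CEBPA came mostly from S100A9 (4623 FPKM), S100A8 (3731 FPKM) and S100A12 (1609 FPKM). At or below 1 FPKM were 7 of the 8 in CTR, 2 in CEBPA (PRTN3 and MMP9) and 4 in P30, though 0 were at 0. Of the lymphocyte markers, CD3D was at 6.61, 2.33 and 6.38 FPKM in CTR, CEBPA and P30, and CD3E stayed below 1 FPKM in each. The 4 stromal markers summed to 4.01, 5.20 and 4.90 FPKM. The shift of erythroid and granulocyte markers moved with the CEBPA line, as did MXI1, MXD3 and MAX, and its part in their levels was not tested. In these bulk samples fewer cells of a type and less RNA per cell cannot be told apart. The transgene CEBPA itself was not analysed here.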

How the data were processed

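RNA-seq of 6 K562 samples (2 replicates each of CTR, CEBPA and P30) was used. The authors aligned stranded paired-end reads to hg19 with TopHat2 (version 2.0 in the submitters' processing notes), assembled them with Cufflinks on Gencode and deposited FPKM from Cuffdiff, 1 value per gene and group with replicates pooled, in 3 tables. How Cuffdiff scaled the libraries, how strand entered the counting and how the rows of each table were selected are not given in the sources used here. Scaling among the 3 lines sets the size of every difference. Ribosomal RNA depletion and a poly(A) kit are both named for the libraries.

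From these values, differences of log2(FPKM + 1) were computed per row for all genes with over 1 FPKM in either group and called at 2-fold, or at 1.5-fold as an alternative. No test was possible with 1 value per group. Levels across the 3 groups used symbols that occur once per table. The genes and the 13 lists were chosen with earlier results of these data known. Named were all members, up to 4 genes per list furthest from CTR in CEBPA and up to 2 in P30, and the 3 nearest in pattern to MYC and to the highest and lowest member in CEBPA vs CTR. One gene of the turnover list and one marker are not reported here and are left out of the counts. Markers are named only where they set a range, a count or a sum. Other alternatives were a pseudocount of 0.1, centring on the median, summed rows, no filter or one at 5 FPKM and other forms of the MYC ratio. The computation was tested on simulated data with little noise and changes well past 2-fold, which checks the code only and not replicate error. Python 3.11.15, numpy 2.4.6, pandas 2.3.3 and matplotlib 3.10.9 were used.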

Additional observations from a re-analysis of the deposited data

How the results depend on the processing

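No paired analysis was possible because the columns give 1 pooled value per group, and neither a replicate block nor leaving out a replicate was run. A log2 difference was taken as moved beyond 0.20, the spread of all genes in P30 vs CTR, and a count or ratio beyond 1.5 times. Of 63 recomputed log2 differences of the 7 genes under another pseudocount, centring and summed rows, 0 moved and 0 took another sign. The largest shift was 0.089, with a pseudocount of 0.1 (MXI1 in CEBPA vs P30, -1.18 in place of -1.09). Summed rows repeat the main values, since these genes had 1 row each. Centring shifts every gene by the median of all genes, -0.01 in CEBPA vs CTR, 0.02 in P30 vs CTR and -0.04 in CEBPA vs P30. These medians are within 0.20. Under centring and summed rows 0 moved by construction, so that only the pseudocount tested this limit.

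With pseudocount 0.1, 1 gene in place of 0 was 2-fold apart in CEBPA vs CTR, namely MXI1. At a 1.5-fold threshold there were 3 (CEBPA vs CTR) and 4 (CEBPA vs P30). With the geometric mean of the repressors in place of their sum, the MYC ratio was 3.23 in CTR, 2.89 in CEBPA and 3.79 in P30, a larger number by construction and in the same order. The other 81 of 87 recomputed values stayed within the limits, but many of them could not have left these limits. All 7 genes had 1 row and over 5 FPKM in every line. Summed rows, no filter and the filter at 5 FPKM therefore could not change the counts. The number 81 is thus not a measure of stability. Depth is unknown from FPKM, and replicate error was not available for any value.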
